A study of Ovis aries with 12 samples.

Results

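The resting transcriptome described here is that of the sheep kept on the basal diet, which had no succinate added. Its 3 libraries, called replicates 1, 2 and 3, were taken by their diet label from the 12 RNA sequencing libraries of the series, and all 21257 genes of the deposited table were ranked in them. The series concerns 5-month-old Tan sheep (Ovis aries) on 4 diets, with succinate added at 0.5%, 1% or 2% in the other 9 libraries. The trial fed 36 sheep, 9 per diet. The sample labels name no tissue, while the title of the series speaks of cells of the rumen epithelium. They also do not say that each library came from its own sheep, so the spread given here is that between libraries and may be partly technical. No diet is compared here, and no test was run.

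The rumen is the large fermenting chamber of the ruminant forestomach. Its wall carries a stratified, keratinised epithelium on the inner face, over connective tissue with vessels and nerves, and thick layers of smooth muscle below. In smooth muscle, calcium bound to calmodulin switches on myosin light chain kinase, the kinase phosphorylates the regulatory light chain of myosin, and the myosin then pulls on actin filaments that are anchored in dense bodies and plaques through desmin and filamin. In the gut, enteric neurons, pacemaker interstitial cells and hormones set the rhythm of that contraction.

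The libraries were of even depth, with 16426453, 16168238 and 16098638 reads assigned to genes in replicates 1, 2 and 3, and 15602, 16154 and 16209 genes had at least 1 read. Levels are the authors' FPKM, the fragments per unit of gene length in a library of fixed size, so that levels of different genes can be set beside each other. For a gene with 0 reads the limit is 3 reads, or 0.183 to 0.186 CPM depending on the library, where CPM is the read count over the library's depth. This limit covers counting error only. In bulk tissue, fewer cells of a type and less RNA per cell cannot be told apart. A mean of at least 1 FPKM over the 3 libraries, called expressed below, was found for 11718 genes, 55.1% of the table. At least 10 FPKM was found for 5430 genes, 25.5%, and at least 1000 FPKM for 89 genes. No read in any of the 3 libraries was found for 4257 genes, 20.03% of the table. These shares are the background for the counts of list members given below.

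Replicate 1 stood apart. Across the 11718 expressed genes, Pearson's r of log2(FPKM + 1) was 0.965 between replicates 1 and 2 and 0.966 between replicates 1 and 3, against 0.978 between replicates 2 and 3. These values run over genes that share the same libraries and describe the libraries only. In 1552 expressed genes, 13.2%, the highest library was at least 2 times the lowest, and replicate 1 was the lowest of the 3 in 1173 of these, 75.6%. A pair of libraries gives a smaller count than all 3 by construction. Replicates 2 and 3 were at least 2-fold apart in 407 genes, 3.47% of those expressed. The same count was 1099 genes, 9.38%, for replicates 1 and 2, and 1096 genes, 9.35%, for replicates 1 and 3. With the libraries rescaled to equal sums of FPKM, which also let more genes past the minimum, 2338 of 12644 genes had the 2-fold spread, 18.5%, and replicate 1 was lowest in 1842 of them. Values are therefore given by library wherever replicate 1 differed.

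The 5 smooth muscle markers were all among the 14 most abundant genes. They were chosen with earlier results of these data known, so their ranks are no independent check of the tissue. DES encodes desmin, the intermediate filament of muscle, and had 8316, 7360 and 8120 FPKM in replicates 1, 2 and 3, with a mean of 7932 ± 505 FPKM (SD, n = 3) and rank 4. MYL9, the regulatory light chain of smooth muscle myosin, had 5635, 7864 and 5634 FPKM, a mean of 6378 ± 1287, and rank 7. TAGLN (transgelin, an actin-bundling protein of smooth muscle) had 5471, 6620 and 5092 FPKM, a mean of 5728 ± 795, and rank 8. Replicate 2 was highest for MYL9 and TAGLN and lowest for DES, so no library was low in all markers. ACTG2, the smooth muscle actin of the gut, had 5139.5, 5947 and 4127 FPKM, a mean of 5071 ± 912, and rank 12. CNN1 (calponin, which restrains the actin-activated myosin motor) had 5087, 4014 and 4055 FPKM, a mean of 4386 ± 608, and rank 14. For each of these 5 genes the highest library was less than 1.5 times the lowest, and SDs were far above counting error, which was under 1% of the level. In the deposited table DES lies on chromosome 2 from 221345177 to 221352233, MYL9 on chromosome 13 from 65630292 to 65638579, TAGLN on chromosome 15 from 27621087 to 27626506, ACTG2 on chromosome 3 from 95717366 to 95741460 and CNN1 on chromosome 5 from 13613085 to 13620939; the genome build behind these positions is not given in the sources used here.

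The most abundant gene was COX1, a mitochondrially encoded subunit of cytochrome c oxidase, with 19879.5, 13306 and 15267 FPKM. EEF1A1, which delivers transfer RNAs to the ribosome, followed with 10700.3, 8360.3 and 8116 FPKM, and MYL6, the essential light chain of smooth and non-muscle myosin, with 9043, 8628 and 7320 FPKM. Replicate 1 was highest in all 3 genes. The 40 most abundant genes held 7 genes of the mitochondrial genome, ribosomal proteins from RPL23A and RPLP1 down to RPL13A, and, besides the 5 markers, the contractile genes MYH11 (the smooth muscle myosin heavy chain), TPM2 (beta tropomyosin), ACTB and DSTN (destrin, which severs actin filaments). The remaining members of this top group included TPT1, a translation-linked protein, and CKB (brain-type creatine kinase, which buffers ATP), at 1812, 2459 and 2281 FPKM. DSTN was the most even of them, at 2142, 2169 and 2173 FPKM. MYH11 was lowest in replicate 1, at 1919 FPKM, against 2533 and 2938 FPKM in replicates 2 and 3.

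**Figure D1:**
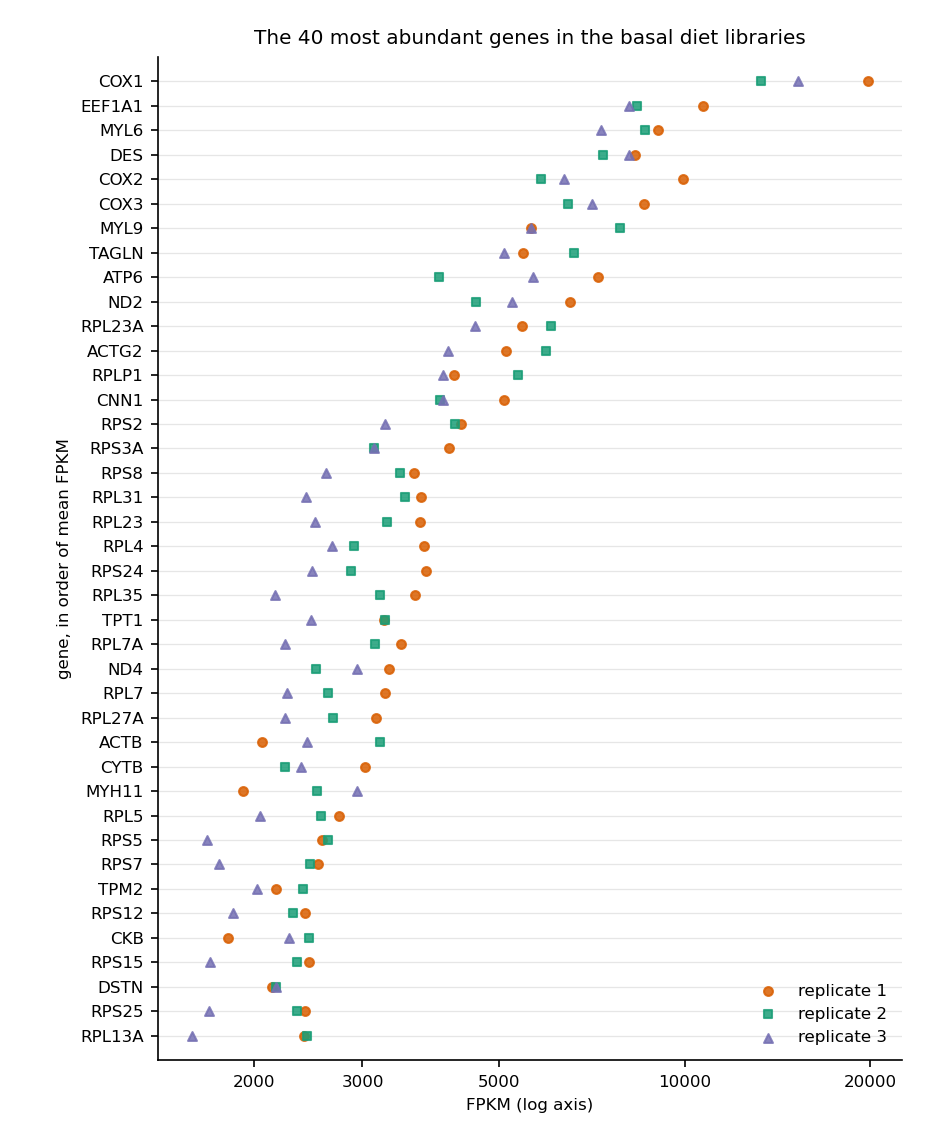
FPKM of the 40 most abundant genes (log axis), 1 row per gene in order of mean FPKM, with a point for each of the 3 basal diet libraries. COX1 leads at 13306 to 19879.5 FPKM, and most ribosomal protein genes have their lowest point in replicate 3.

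Few genes carried much of the signal. The 10 most abundant genes held 16.5%, 13.7% and 15.1% of the summed FPKM of replicates 1, 2 and 3, and the 100 most abundant held 50.6%, 47.8% and 45.2%. It took 96, 114 and 141 genes to reach 50% of the summed FPKM. Replicate 1 was thus the most concentrated library and replicate 3 the least.

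By class, genes of cytosolic ribosomal proteins held 25.4% ± 2.99 (SD, n = 3) of the summed FPKM, and 61 of the 100 most abundant genes belonged to them. Contractile and cytoskeletal genes held 11.2% ± 0.704, the 13 genes of the mitochondrial genome 9.65% ± 1.76, translation factors 3.90% ± 0.294 and nuclear genes of the respiratory chain 2.32% ± 0.229. Extracellular matrix and matrix enzymes held 1.67% ± 0.340. FPKM weights short messages, and the order differs when reads are counted without dividing by length: contractile and cytoskeletal genes then held 14.4% ± 0.619 of the reads, against 9.34% ± 1.62 for ribosomal proteins and 5.42% ± 1.11 for the mitochondrial genome. In both scales replicate 3 had the smallest ribosomal share and replicate 1 the smallest matrix share, 1.27% of FPKM against 1.83% and 1.89% in replicates 2 and 3. Ribosomal proteins, actins, EEF1A1 and ferritin have near-identical copies in the genome, between which reads can be split, so the level of a single copy is uncertain. The class total includes 255 ribosomal protein genes named only by a LOC number, which held 1.86%, 1.53% and 1.44% of FPKM.

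**Figure D2:**
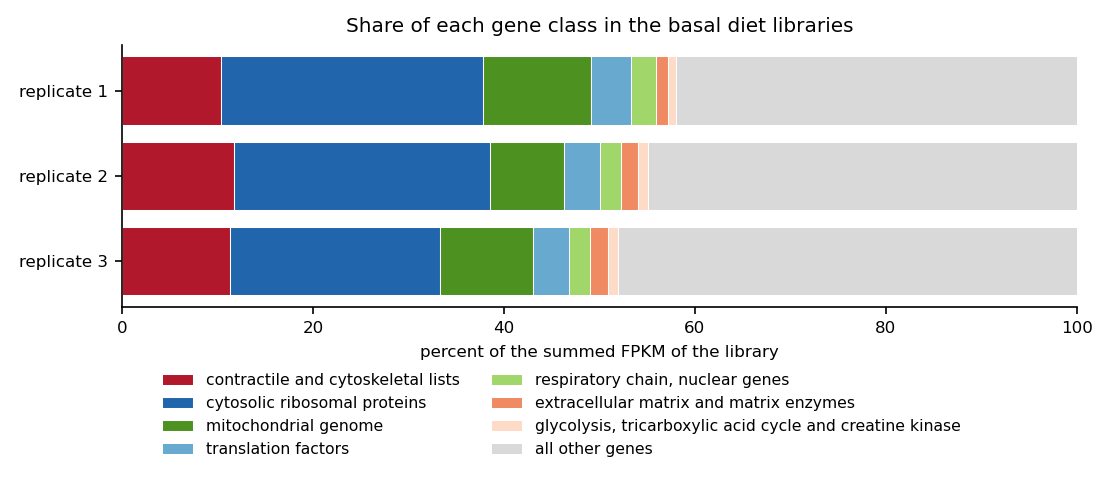
Share of the summed FPKM (percent) held by 8 gene classes in each basal diet library, as stacked bars. Ribosomal proteins take 27.4%, 26.8% and 21.9% in replicates 1, 2 and 3, and the contractile and cytoskeletal share runs from 10.4% to 11.8%.

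Within the mitochondrial genome the listed levels were uneven. COX2 had 9961, 5844 and 6382 FPKM, with replicate 1 highest and replicate 2 lowest, and COX3, ATP6 and ND2 averaged between 5444.6 and 7382 FPKM. ND5 averaged 6.05 ± 1.91 FPKM, ATP8 2.44 ± 1.88 FPKM and ND6 0.506 ± 0.272 FPKM. ATP8 overlaps ATP6, and ND4L overlaps ND4, so reads in those stretches may be shared or dropped in counting, and ND6 lies on the opposite strand; the strand setting of the counting is not given in the sources used here.

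The list of smooth muscle markers was expressed to its last member, which the wider families were not. Of tropomyosin and thin filament genes 12 of 15 were expressed, and of myosin heavy chains 4 of 10, against 55.1% of all genes. All 15 smooth muscle markers reached 10 FPKM, against 25.5% of all genes, and their median of 1184 FPKM stood at percentile 99.62 of the table. MYLK, the myosin light chain kinase, had 1308, 1129 and 1116 FPKM. CALD1 (caldesmon, a thin filament regulator) had 1154, 704 and 948 FPKM, and SMTN (smoothelin, found in contractile smooth muscle) 348, 529 and 388 FPKM. No library was the lowest in all of these. LMOD1, which seeds actin filaments, averaged 218 ± 21.7 FPKM and SYNPO2 (synaptopodin-2, an actin-binding Z-disc and dense-body protein) 259 ± 8.25 FPKM.

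A single marker broke this evenness. ACTA2, the smooth muscle actin that marks vessel walls as well as other smooth muscle, had 18.2 FPKM in replicate 1 against 363 and 334 FPKM in replicates 2 and 3, from 405, 7943 and 7283 reads. Its highest library was 19.9 times its lowest, while ACTG2 differed by 1.44 times and MYH11 by 1.53 times. Actin genes are close in sequence, so reads between ACTA2, ACTG2 and other actins may be split, and the part of this in the low value was not tested. Replicate 1 was also the lowest in NOTCH3, a receptor of vascular smooth muscle and pericytes, at 0.810 FPKM against 6.38 and 5.38 FPKM. With a highest library 7.88 times its lowest, NOTCH3 had the widest spread of the 9 pericyte markers. MCAM and RGS5, the most abundant of that list, differed by 1.42 and 1.52 times. KCNJ8 and ABCC9 were highest in replicate 1, while the other pericyte markers were lowest there.

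Structural partners of the filaments were abundant too. Of 40 genes for dense plaques and adhesion, 39 were expressed and 31 reached 10 FPKM, against 55.1% and 25.5% of all genes. FLNA, the actin-crosslinking filamin, had 697, 958 and 1035 FPKM, PDLIM3, an actinin-binding protein, 850, 697 and 687 FPKM, and CAV1, which forms caveolae, 772, 634 and 763 FPKM. ITGB1, the common integrin beta chain, led the integrins at 357, 226 and 250 FPKM, with replicate 1 highest. ITGA7 (46.1 ± 8.55 FPKM), ITGA8 (33.2 ± 3.00 FPKM) and ITGA1 (23.1 ± 2.87 FPKM) were the most abundant alpha chains. Of 26 genes with integrin names, 18 were expressed, against 55.1% of all genes. PCP4, a small regulator of calmodulin best known from neurons, ranked 67 in the table at 1596, 1460 and 1331 FPKM.

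Most genes of calcium handling, potassium channels and cyclic GMP and AMP control varied little between libraries. The median ratio of the highest to the lowest library was 1.41, 1.44 and 1.49 in these 3 lists. CALM2, a calmodulin gene, had 817, 787 and 695 FPKM. PLN (phospholamban, which restrains the calcium pump of the sarcoplasmic reticulum) had 286, 441 and 390 FPKM, while ATP2A2, that pump, had 16.7, 20.2 and 23.6 FPKM. PLN was lowest in replicate 1. The voltage-gated calcium channel CACNA1C had 9.71, 9.56 and 10.7 FPKM and the release channel RYR2 2.35, 2.83 and 3.25 FPKM. Among potassium channel genes, KCNMB1 (the smooth muscle beta subunit of the large-conductance calcium-activated channel) led with 87.9, 102 and 112 FPKM, ahead of its pore subunit KCNMA1, at 31.7, 23.9 and 29.9 FPKM. KCNE4 averaged 32.1 ± 3.54 FPKM and KCNJ8, a subunit of ATP-sensitive channels, 17.4 ± 6.72 FPKM. In the cyclic GMP pathway, which relaxes smooth muscle, the phosphodiesterase PDE5A had 39.2, 48.4 and 58.5 FPKM, the kinase substrate IRAG1 31.7, 32.2 and 33.0 FPKM, the guanylate cyclase subunit GUCY1B1 22.0, 21.4 and 25.7 FPKM, and the kinase PRKG1 18.8, 18.1 and 16.9 FPKM. A 2-fold spread between libraries was found in 1 of 24 expressed genes of the calcium list (CASQ1), in 1 of 14 potassium channel genes (KCNJ8) and in 4 of 13 genes of the cyclic GMP and AMP list, 30.8%, against 13.2% of all expressed genes. The 4 were PDE3A, PRKAR2B, PDE4B and NOS3, each lowest in replicate 1 and below 10 FPKM on average.

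Transcription factors were far less abundant than their contractile targets. SRF, which drives contractile genes together with myocardin, had 51.5, 59.8 and 60.8 FPKM, and MYOCD (myocardin) had 5.97, 4.92 and 5.48 FPKM. TEAD3, TEAD1, MEF2A and KLF4 followed SRF, with means between 10.9 and 30.2 FPKM. All 24 genes of this list had reads and 19 were expressed, against 55.1% of all genes.

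Receptors were expressed somewhat less often than genes in general and at modest levels. Of 271 genes in 12 receptor lists, 129 were expressed, 47.6%, against 55.1% of all genes. Of the same 271, 42 reached 10 FPKM, 15.5%, against 25.5% of all genes, and none reached 100 FPKM. Their median was 0.837 FPKM, at percentile 43.7 of the table, and 29 had no read. Among 485 genes that the deposited table annotates directly with G protein-coupled receptor activity, a set that leaves out many of the receptors named below and includes olfactory receptors, 32 were expressed and 376 had no read. The most abundant of them was MRGPRF, a receptor with no settled ligand, at 64.1, 115 and 76.6 FPKM. ADGRE5, ADGRG6 and TM2D1 were the other 3 of that set that reached 10 FPKM.

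Receptors for transmitters of gut motility were present at low to moderate levels. CHRM3, the muscarinic receptor that triggers contraction, had 9.66, 8.90 and 8.66 FPKM, and CHRM2, the muscarinic receptor most abundant in gut muscle of other mammals, 6.85, 6.65 and 8.52 FPKM. Both were even across libraries, and CHRM1 averaged 0.245 ± 0.0216 FPKM. TACR2, the neurokinin receptor of gut muscle, had 21.5, 32.7 and 16.4 FPKM. The serotonin receptors HTR2A (11.2, 18.1 and 15.7 FPKM) and HTR2B (10.8, 17.2 and 12.4 FPKM) reached 10 FPKM. In the serotonin and histamine receptor list 8 of 17 genes had no read, HTR3A and HTR3B among them, against 20.03% of all genes. VIPR2, a receptor for the relaxing peptide VIP, had 12.8, 11.3 and 9.997 FPKM. BDKRB2, a bradykinin receptor, led the peptide receptors with 24.7, 51.3 and 42.4 FPKM. It overlaps BDKRB1, at 11.8 ± 3.44 FPKM, on the same strand, so their reads cannot be fully separated. RAMP2 and RAMP1 (partners of the adrenomedullin and CGRP receptor), EDNRB (endothelin) and AGTR1 (angiotensin) also reached 10 FPKM, and BDKRB2, RAMP2, EDNRB and AGTR1 had a 2-fold spread. RAMP2 had 14.9, 44.0 and 30.2 FPKM and AGTR1 4.49, 17.3 and 10.8 FPKM, both lowest in replicate 1. P2RX4, an ATP-gated channel, led the purinergic receptors at 17.4, 25.5 and 19.8 FPKM. None of the 14 adrenergic and dopamine receptor genes reached 10 FPKM, against 25.5% of all genes.

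SUCNR1, the receptor through which extracellular succinate signals, was not expressed by the 1 FPKM rule. It had 0.535, 0.725 and 1.11 FPKM, so that replicate 3 alone passed 1 FPKM. Its list of 15 metabolite receptors held 2 expressed genes, against 55.1% of all genes. These were GPBAR1 (2.61 ± 0.712 FPKM) and HCAR1 (1.92 ± 1.73 FPKM). FFAR2 and FFAR3, which sense short-chain fatty acids, averaged 0.0843 ± 0.0663 and 0.0269 ± 0.0465 FPKM. HCAR1, a lactate receptor known from fat cells, had 0.243, 1.82 and 3.70 FPKM, in the same order of libraries as the fat cell genes described further on. This order was not particular to HCAR1. SUCNR1, HCAR2, FFAR4 and FFAR2, all below 1 FPKM on average, were also lowest in replicate 1 and highest in replicate 3.

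Growth factor receptors were led by BMPR1A (48.6, 44.5 and 46.5 FPKM), a receptor of bone morphogenetic proteins, FGFR1 (32.1, 47.7 and 48.7 FPKM) and TGFBR3 (41.0, 39.0 and 47.5 FPKM). All 13 TGF-beta family receptors had reads and 11 were expressed, against 55.1% of all genes. TGFBR2, ACVR1, ACVR2A and ENG were also above 10 FPKM. The kinases DDR2, EGFR, PDGFRA, AXL, CSF1R, ERBB2, ROR2 and FGFR2 lay between 10.4 and 21.3 FPKM, and the WNT receptors LRP5, FZD4, FZD1 and FZD7 between 11.1 and 15.8 FPKM. The innate receptor CD14 (27.3 ± 6.18 FPKM) and the sphingosine phosphate receptor S1PR1 (10.8 ± 1.44 FPKM) complete the receptors above 10 FPKM. The nuclear receptors NR1D2 and NR1D1 (repressors of the circadian clock), THRA and THRB (thyroid hormone), NR1H2 and NR1H3 (oxysterols), NR2F2, RXRB, ESRRA and NR3C1 (glucocorticoid) made up the 10 of 39 that reached 10 FPKM, from 11.9 to 47.2 FPKM. NR1D1 had 8.75, 29.9 and 20.6 FPKM and was lowest in replicate 1, whereas THRA had 35.99, 38.05 and 35.8 FPKM.

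Secreted products were dominated by matrix proteins and their regulators. Of 256 genes in 10 secreted lists, 157 were expressed, 61.3%, and 66 reached 10 FPKM, 25.8%, shares near the 55.1% and 25.5% of all genes, and 16 reached 100 FPKM. The top gene annotated to the extracellular space was MGP, which blocks calcification of matrix, at 921, 1814 and 1909 FPKM. It ranked 60 in the table and was lowest in replicate 1. SPARCL1 and SPARC, collagen-binding matricellular proteins, were the next matrix genes. SPARCL1 had 866, 619 and 1004 FPKM, and SPARC 744, 746 and 752 FPKM, an SD of 4.56 FPKM. POSTN (periostin), THBS4 and FN1 (fibronectin) averaged 436 ± 76.6, 159 ± 51.9 and 152 ± 34.7 FPKM, and CCN1, SPON2, CCN2, CCN3, TNC, THBS2 and SPON1 lay between 10.7 and 57.6 FPKM. CST3 (cystatin C, a protease inhibitor), at 631, 845 and 585 FPKM, TIMP3 (285 ± 23.7 FPKM) and A2M (269 ± 98.5 FPKM) led the protease inhibitors, ahead of SERPINH1, TIMP2, SERPING1, SERPINF1 and TIMP1. Among the proteases, MMP2 and MMP14 averaged 79.7 ± 33.7 and 79.2 ± 19.7 FPKM, HTRA1, CPE, MMP11, ADAMTS1 and MMP23B lay lower but above 10 FPKM, and MMP1, MMP3, MMP7 and MMP13 had no read. Complement genes, led by the membrane inhibitor CD59 (228, 273 and 251 FPKM), reached 10 FPKM in 9 of 17, against 25.5% of all genes. C1R (34.2, 108 and 90.7 FPKM) and C1S (32.4, 86.0 and 74.2 FPKM), which start the classical cascade, were lowest in replicate 1.

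The most abundant collagen chains were of the fibrillar, type VI and basement membrane kinds. COL3A1 led at 292, 448 and 455 FPKM, COL1A2 had 77.0, 305 and 189 FPKM and COL1A1 30.2, 158 and 90.0 FPKM. Replicate 1 was lowest in each, and replicate 2 was 5.23 times replicate 1 for COL1A1. The type VI chains COL6A1, COL6A2 and COL6A3 averaged 135 ± 32.1, 84.7 ± 31.6 and 49.4 ± 6.94 FPKM. The basement membrane chains COL4A1 and COL4A2 averaged 127 ± 24.8 and 85.0 ± 18.5 FPKM. Of 43 collagen chain genes, 22 were expressed, a share near the 55.1% of all genes. Small proteoglycans were led by DCN (decorin), at 396, 804 and 658 FPKM, LUM (lumican), at 177, 453 and 354 FPKM, OGN and FMOD. Elastic fibre genes were all expressed, 21 of 21, against 55.1% of all genes. MFAP4 led them at 232, 278 and 239 FPKM. ELN (elastin) had 22.1, 60.7 and 74.0 FPKM.

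Binding proteins led the insulin-like growth factor list. IGFBP4 had 272, 449 and 301 FPKM and IGFBP5 139, 174 and 154 FPKM, while the ligands IGF1 and IGF2 averaged 11.1 ± 4.86 and 6.07 ± 3.13 FPKM. The order of the ligands depends on the listed length, which is 24117 bases for IGF2. In reads IGF2 was ahead, with 1067, 3460 and 2580 against 709, 1779 and 1741 for IGF1. IGFBP7 and IGFBP6 averaged 130 ± 61.6 and 79.0 ± 34.5 FPKM. IGFBP3 had 12.5, 109 and 68.3 FPKM, lowest in replicate 1. PTN (pleiotrophin) led the growth factors at 67.1, 88.6 and 78.9 FPKM, and VEGFB, FGF7, ANGPTL2, PDGFD, VEGFA, ANGPTL4 and KITLG lay between 10.9 and 41.6 FPKM. In the TGF-beta family list, FSTL1, a follistatin-like protein, led at 98.0, 179 and 163 FPKM. GREM1, which blocks bone morphogenetic proteins, had 57.1, 61.8 and 31.7 FPKM. The ligand BMP4 had 9.69, 19.4 and 11.7 FPKM and NOG (noggin, another blocker) 10.7 ± 7.19 FPKM. In the WNT list, DKK3 (32.6 ± 3.35 FPKM) and the antagonist FRZB (20.9 ± 3.06 FPKM) were ahead of WNT5A, at 12.4, 11.4 and 9.39 FPKM, the most abundant WNT ligand. Of the 32 genes of that list 7 had no read, a share near the 20.03% of all genes. GAS1, a hedgehog co-receptor, had 56.6, 60.8 and 50.6 FPKM, while the hedgehog ligands SHH and IHH had no read. MIF led the cytokines and chemokines at 156, 159 and 112 FPKM, with CCL21 (46.3, 130 and 52.8 FPKM), CXCL12 and IL33 after it.

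Among peptide hormones, ADM (adrenomedullin, a vasodilator) had 45.2, 39.4 and 58.2 FPKM. The neuropeptides VIP (7.73, 11.7 and 8.24 FPKM), PENK (1.85, 24.3 and 17.2 FPKM), CARTPT (3.71, 15.7 and 24.1 FPKM) and TAC1 (0.609, 7.93 and 13.04 FPKM) were detected in every library. Replicate 1 was the lowest of the 3 for each, by 1.51 times for VIP and 21.4 times for TAC1 between the highest and lowest library. NUCB2, the precursor of nesfatin, averaged 10.9 ± 1.98 FPKM. GAST, GCG and 9 further hormone genes of the 41 in this list had no read, against 20.03% of all genes.

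Markers of several other cell types were expressed. Beyond smooth muscle, all 12 fibroblast markers, all 12 blood endothelial markers, all 9 pericyte markers and all 13 fat cell markers were expressed, against 55.1% of all genes. These counts rest on means over the 3 libraries. In replicate 1 the pericyte marker NOTCH3 and the fat cell markers PLIN1, LIPE, CIDEC, PPARG, CIDEA and LEP were below 1 FPKM. SPARC, DCN, DPT and COL3A1 led the fibroblast list, some of which smooth muscle also makes. PECAM1, the platelet and endothelial adhesion molecule, led the endothelium at 30.8, 47.1 and 56.2 FPKM, and VWF had 4.95, 14.5 and 14.3 FPKM. MCAM (137, 193 and 194 FPKM), which smooth muscle also makes, led the pericyte list, and RGS5 had 41.6, 59.9 and 63.4 FPKM. Lymphatic endothelium was represented by CCL21, LYVE1 (23.8, 18.6 and 21.0 FPKM) and MMRN1 (12.4, 12.3 and 13.4 FPKM), with PROX1 at 0.858 ± 0.183 FPKM.

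Interstitial cells of Cajal, the pacemakers of gut muscle, were marked by KIT at 7.07, 6.06 and 7.52 FPKM and ANO1, the chloride channel that drives the slow waves, at 6.23, 5.43 and 7.28 FPKM. Of that list 6 of 7 genes were expressed, against 55.1% of all genes, and none of the 6 had a 2-fold spread. Mast cells, which also carry KIT, left few reads: CPA3 averaged 0.261 ± 0.194 FPKM and TPSB2 had no read. PDGFRA, of the second interstitial cell class, had 7.89, 19.5 and 19.2 FPKM.

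Neurons were thinly represented. HAND2, which enteric neurons and gut mesenchyme share, stood at 127 FPKM. Of the other 17 markers 5 were expressed, against 55.1% of all genes. UCHL1 had 2.30, 16.4 and 11.4 FPKM, STMN2 1.21, 8.36 and 5.18 FPKM and PRPH 0.555, 5.67 and 3.33 FPKM. Replicate 1 was lowest in all 3. The transmitter enzymes NOS1 and CHAT averaged 0.137 ± 0.0816 and 0.0544 ± 0.0475 FPKM. Of the glial markers, 12 of 14 were expressed, against 55.1% of all genes. They were led by PMP22, which other cells also make, and S100B at 14.2, 26.3 and 24.6 FPKM. All 12 were lowest in replicate 1, and 7 of them had a 2-fold spread, against 13.2% of all expressed genes. In replicate 1, L1CAM, GFAP and FOXD3 were below 1 FPKM. SOX10, the factor that defines glia and Schwann cells, had 1.24, 4.25 and 2.52 FPKM.

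Among the immune cell lists, that of macrophages and dendritic cells had the most expressed markers, which does not give the share of each cell type. Of 15 macrophage and dendritic cell markers, 14 were expressed and 9 reached 10 FPKM, against 55.1% and 25.5% of all genes. They were led by C1QB (37.3, 40.1 and 59.9 FPKM), C1QC and CD14. T and NK cell markers reached at most 2.84 ± 0.791 FPKM (GNLY), with CD3E at 0.414, 0.982 and 2.63 FPKM. Of the B and plasma cell list, JCHAIN, of antibody-making cells, had 3.88, 6.195 and 5.55 FPKM, and XBP1, made in many secretory cells, 47.9 ± 5.83 FPKM. The neutrophil genes MPO and S100A8 had no read. Red blood cells left HBB at 5.70, 0.565 and 0 FPKM, a trace highest in replicate 1.

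Most epithelial marker genes were near the floor. The rumen epithelium named in the title is stratified, so the simple epithelium list stands for another type of epithelium. In the basal layer list, KRT5, KRT14, KRT15, TP63 and DSG3 had 0 reads in all 3 libraries, as had IVL, KRT1, KRT4, FLG and DSG1 in the upper layers and EPCAM, VIL1 and CDX2 in the simple epithelium list. A count of 0 allows the 3 reads per library given above. Expressed members numbered 4 of 10 in the basal layer list, 5 of 21 in the upper layer list and 0 of 14 in the simple epithelium list, against 55.1% of all genes. In the basal layer list these were DST, ITGA6, ITGB4 and LAMB3. ITGB4, an integrin of hemidesmosomes, had 1.33, 8.61 and 6.43 FPKM, lowest in replicate 1, and LAMB3, a laminin chain of the epithelial basement membrane, 1.72 ± 0.605 FPKM. In the upper layers they were S100A14, at 15.5, 26.2 and 23.5 FPKM, KLF4, PPL, DSC2 and SBSN. DST, ITGA6 and KLF4 are also made by muscle, vessels or fibroblasts. CDH1 (E-cadherin) averaged 0.0555 ± 0.0635 FPKM. Over all 59 genes annotated as keratins, 3 were expressed, 41 had no read, and the highest, KRT8, had 1.16, 5.74 and 1.88 FPKM. Mesothelium, the outer lining, was likewise faint, with MSLN at 0.0863 ± 0.115 FPKM and WT1 at 0.0172 ± 0.0299 FPKM. Melanocyte, heart muscle, hepatocyte and skeletal muscle lists had medians under 1 FPKM, and MYOD1, MYOG, NKX2-5 and TYRP1 had no read. ACTA1, the skeletal muscle actin, was an exception at 79.7, 124 and 82.1 FPKM, and reads of near-identical actins may contribute to it.

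**Figure D3:**
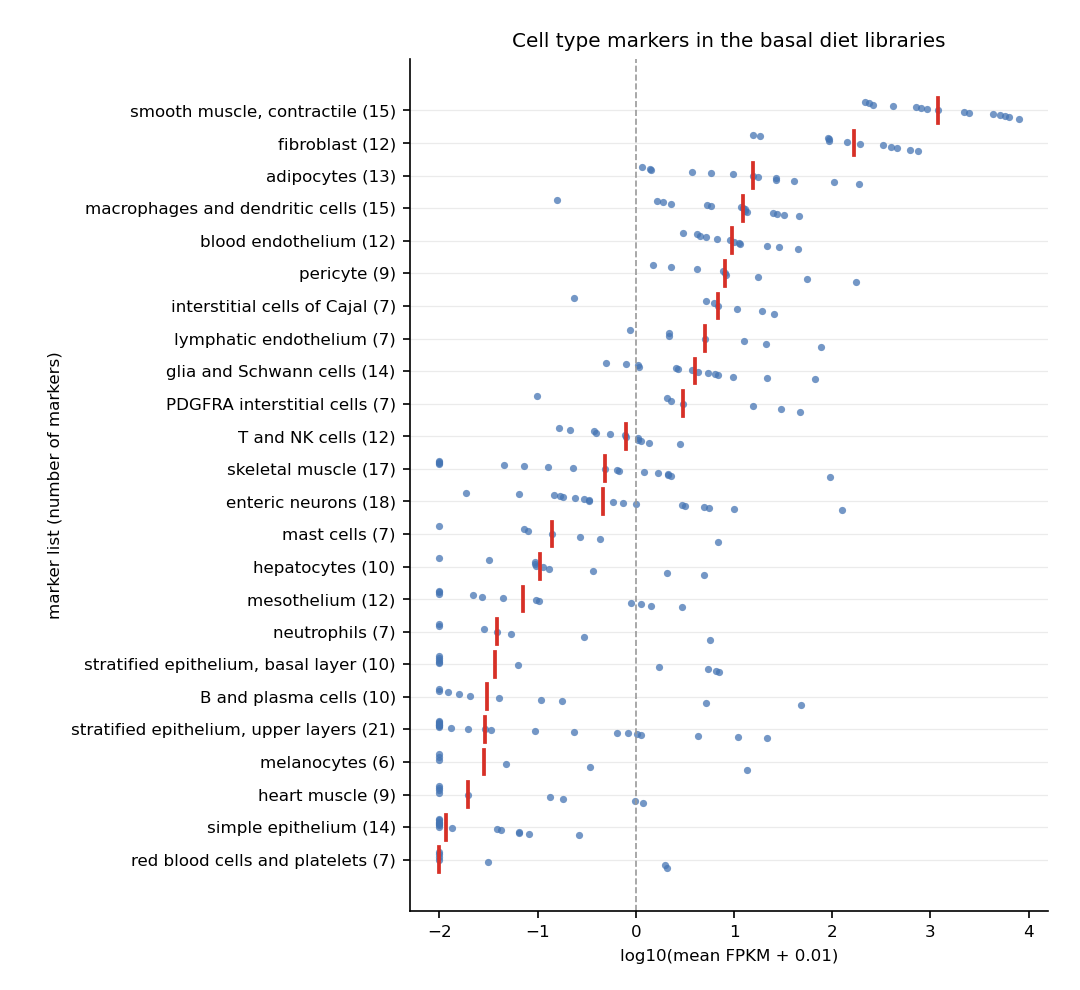
Mean level of each marker over the 3 basal diet libraries, as log10(FPKM + 0.01), for 24 cell type lists ordered by their median (red bar). The dashed line is 1 FPKM and genes without reads sit at -2. Smooth muscle and fibroblast lists lie wholly above 10 FPKM, and the epithelial lists have their medians near the floor.

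Position along the body was marked by HOX genes. Clusters B, on chromosome 11, and C, on chromosome 3, held most of the signal, with summed levels of 66.4 and 124 FPKM, against 11.98 FPKM for cluster A on chromosome 4 and 3.61 FPKM for cluster D on chromosome 2. HOXC6 led with 55.9, 68.6 and 59.1 FPKM and HOXC8 had 49.9, 41.8 and 48.2 FPKM. HOXB7 had 25.7, 24.9 and 20.7 FPKM and HOXB6 13.5, 15.4 and 24.5 FPKM. In paralogue groups 4 to 9, 14 of 19 genes were expressed, against 55.1% of all genes. In groups 10 to 13, none of 12 was expressed, and 9 had no read, against 20.03% of all genes. In these data the expressed HOX genes thus ended at group 9. Several HOX genes overlap on the same strand, HOXB7 with HOXB8 and HOXB9 among them, so levels of neighbours are uncertain.

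**Figure D4:**
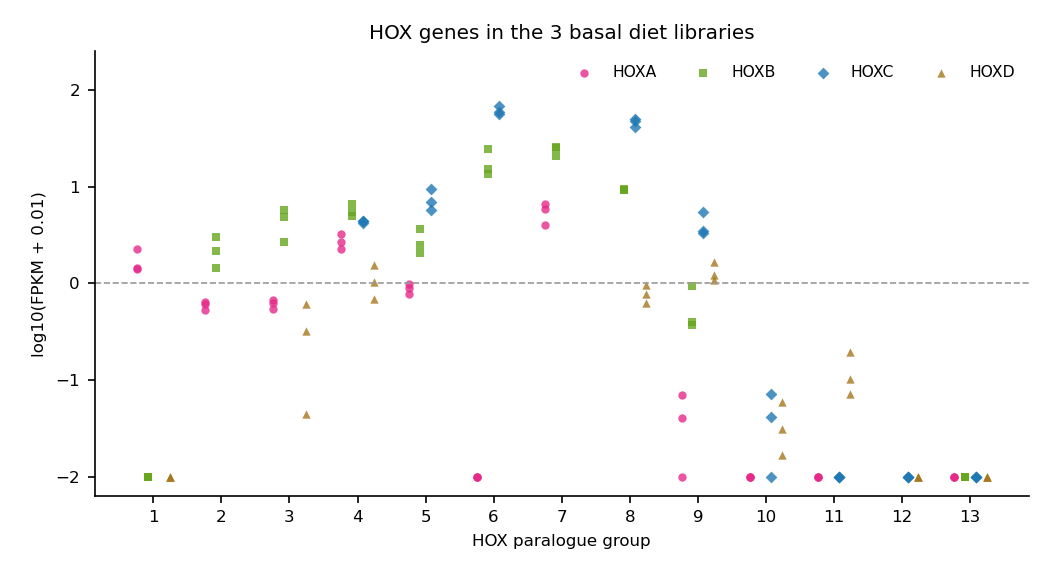
Level of each HOX gene in each of the 3 basal diet libraries, as log10(FPKM + 0.01), by paralogue group and cluster. The dashed line is 1 FPKM. HOXC6 and HOXC8 are the highest points, and all genes of groups 10 to 13 lie below the line.

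Of 38 other positional factors, 23 were expressed, against 55.1% of all genes. Of these 23, 7 had a 2-fold spread, 30.4%, against 13.2% of all expressed genes. They were HAND1, ZEB2, NR2F1, FOXF2, TWIST2, NKX2-3 and SOX18, of which HAND1 reached 10 FPKM. PITX1, a homeobox factor known from the hindlimb and pituitary, had 158, 188 and 144 FPKM, and HAND2 140, 121 and 119 FPKM. MEIS1 and MEIS2, cofactors of HOX proteins, averaged 63.9 ± 8.02 and 49.0 ± 1.66 FPKM. FOXF1, a factor of gut mesenchyme, had 41.3, 52.0 and 47.7 FPKM, and BARX1, known from stomach mesenchyme in the mouse, 26.8, 40.7 and 26.2 FPKM. HAND1 had 39.95, 65.8 and 18.6 FPKM, with replicate 3 lowest. NKX2-5, PDX1, ISL1, TBX5, TBX20 and NKX6-1 had no read, and GATA4 averaged 0.0118 ± 0.0204 FPKM.

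Genes of the succinate and tricarboxylic acid cycle list varied little between libraries. All 20 reached 10 FPKM, against 25.5% of all genes. None had a 2-fold spread, against 13.2% of all expressed genes. The succinate dehydrogenase subunit SDHD had 184, 164 and 165 FPKM, SDHC 105, 106 and 104 FPKM and SDHA 50.4, 58.1 and 64.2 FPKM. SUCLG1, a subunit of succinyl-CoA ligase, had 141, 129 and 130 FPKM. LDHB, the lactate dehydrogenase of oxidative tissue, had 275, 269 and 303 FPKM, against 15.3, 22.9 and 18.7 FPKM for LDHA. Of 18 expressed glycolysis genes 3 had a 2-fold spread, 16.7%. Of the 19 genes of rumen epithelial transport and ketogenesis, 10 were expressed, against 55.1% of all genes, and 5 reached 10 FPKM, led by ACAT1 (116 ± 5.15 FPKM). A 2-fold spread was found in 4 of the 10. They were the monocarboxylate carrier SLC16A1 (45.7, 19.4 and 37.7 FPKM) and the carbonic anhydrases CA4, CA2 and CA9, all lowest in replicate 2. Genes of dividing cells were scarce. PCNA, which also serves DNA repair, had 25.6, 26.6 and 28.6 FPKM, and the other 15 of the 16 genes, TOP2A (0.767 ± 0.205 FPKM) and CDK1 (0.861 ± 0.299 FPKM) included, were below 1 FPKM.

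The spread between libraries was not even over cell types. Over all expressed genes the median coefficient of variation was 14.5%, and counting alone would give 4.53%. Of the 142 expressed genes in the cell type lists, 77 had a 2-fold spread, 54.2%, against 13.2% of all expressed genes, and replicate 1 was lowest in 72 of them. With the libraries rescaled to equal sums these shares were 57.7% and 18.5%. In the secreted lists it was 81 of 157 genes, with replicate 1 lowest in 73, and in the receptor lists 49 of 129, with replicate 1 lowest in 41. Fibroblast markers had a 2-fold spread in 10 of 12 genes and blood endothelial markers in 9 of 12. Between replicates 2 and 3 alone, where counts are smaller by construction, these were 1 and 0, set beside 3.47% of all expressed genes. Smooth muscle had the spread in 1 of 15, which was ACTA2, and interstitial cells of Cajal in 0 of 6.

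Fat cell genes behaved differently. ADIPOQ (adiponectin) had 8.34, 69.8 and 235 FPKM, PLIN1 (perilipin, which coats lipid droplets) 0.726, 9.66 and 36.9 FPKM and FABP4 70.8, 143 and 346 FPKM. All 3 genes were lowest in replicate 1 and highest in replicate 3. The list had a 2-fold spread in 12 of 13 genes, and in 9 of 13 between replicates 2 and 3, so here replicates 2 and 3 also differed. Summed over the list, levels were 150, 339 and 839 FPKM.

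Of the 20 named genes above 10 FPKM with the widest spread, from PLIN1 at 50.8 times to SERPINF1 at 5.51 times, 18 were lowest in replicate 1. CNMD (chondromodulin) had 0.593, 23.7 and 6.26 FPKM, RBP4, a retinol carrier, 5.35, 40.2 and 51.4 FPKM, C3, the central complement protein, 5.45, 41.5 and 44.1 FPKM and C7 27.9, 166 and 81.0 FPKM. PI16, SNCG, SHISA3, AEBP1, EFHD1 and LPL belonged to the same 20. The 2 exceptions were SPTSSB, at 26.5, 9.04 and 2.28 FPKM, and FKBP5, a gene induced by glucocorticoids, at 116, 15.5 and 60.8 FPKM, both highest in replicate 1. The most constant genes were SENP3 (20.7, 20.6 and 20.7 FPKM), NADK (24.98, 25.2 and 25.1 FPKM) and CNEP1R1, and SDHC and DSTN were close to them.

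The libraries also differed in class shares and in a trend with gene length. Replicate 1 had the largest share of mitochondrial genes, 11.3% of FPKM against 7.82% and 9.81% in replicates 2 and 3. The ribosomal share was 27.4%, 26.8% and 21.9% in replicates 1, 2 and 3. Across genes, the deviation of a library from the mean of the 3 was correlated with gene length. Spearman's coefficient was -0.155, -0.173 and 0.351 in replicates 1, 2 and 3. The ribosomal share and the length trend thus set replicate 3 apart. The part of these in the spread was not tested.

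**Figure D5:**
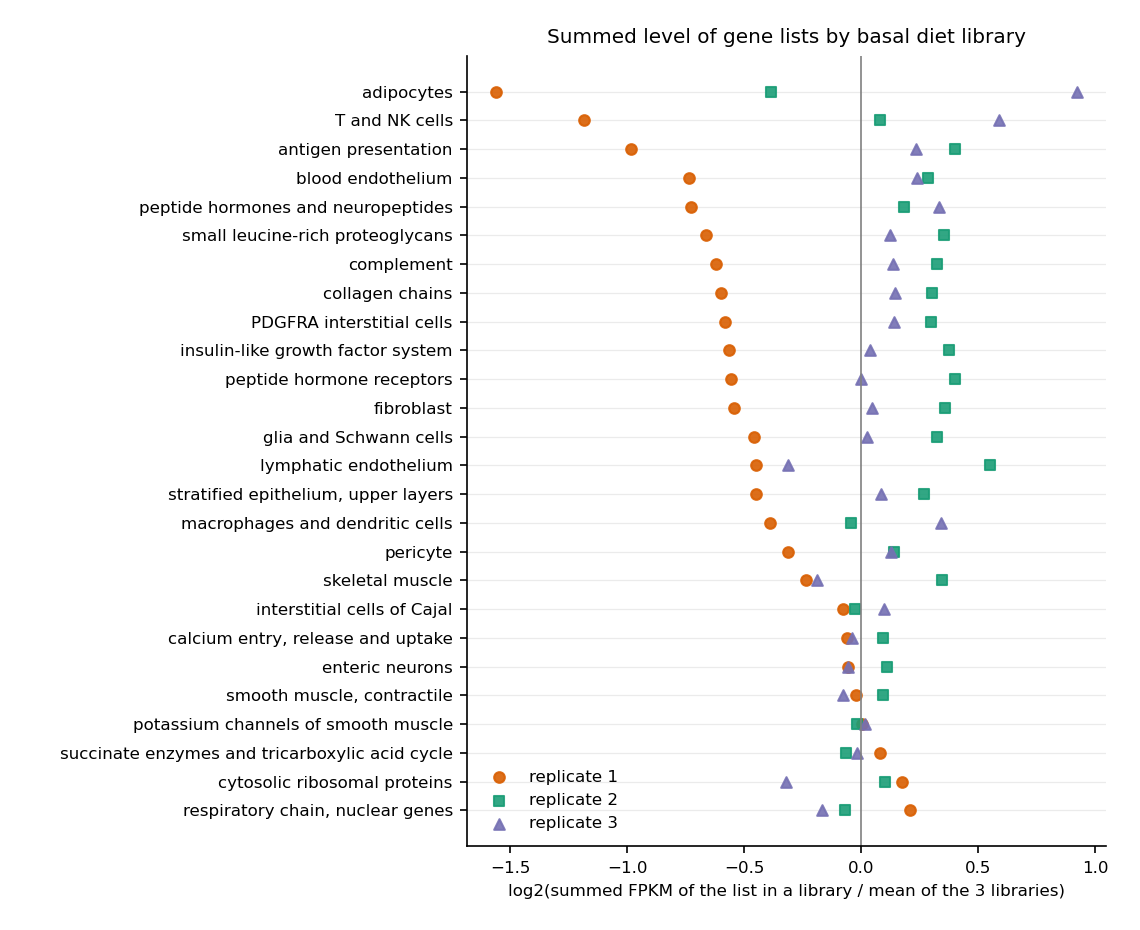
Summed FPKM of 26 gene lists in each basal diet library over the mean of the 3 libraries, as log2, ordered by replicate 1. Replicate 1 lies lowest for fat, T cell, endothelial, matrix and fibroblast lists, at -1.56 for fat cells and -0.54 for fibroblasts, while smooth muscle, potassium channel and energy lists stay within about 0.21 of 0.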

How the data were processed

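RNA was isolated with Trizol and libraries were prepared with a NEBNext Ultra II kit, per the labels' protocols, and the submitters' processing notes name cutadapt 1.15, HISAT2 2.1.0 and HTSeq 0.9.1. The genome build, annotation and strand setting are not given in the sources used here. The authors deposited FPKM values, fragments normalised to length and depth, for 21257 genes in 12 libraries; the 3 basal diet columns were used, and the other 9 per-sample columns were not. Multiplying FPKM by gene length recovered whole reads (tolerance 0.01 reads) in 100% of the 192317 values above 0, and from these came depth and counting error.

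Gene IDs were matched to RefSeq (ARS-UI_Ramb_v3.0) for 20874 genes, 98.2%, which replaced 437 LOC names by symbols and named chromosomes; start and end are those of the deposited table. The mean FPKM over the 3 libraries ranked the genes, a mean of at least 1 FPKM was called expressed, and the spread is the highest over the lowest library. The genes were read against 72 hand-written lists and 14 symbol families, which overlap. The share of a class counts each gene once. No group was compared and no test run, so the numbers are descriptions; the calculation of the spread was tested on simulated data. Named genes are the 40 most abundant, the 4 highest members and the members without reads of a list, receptor, secreted, channel and factor genes of at least 10 FPKM, the 5 markers, SUCNR1, and the 20 named genes of at least 10 FPKM with the widest and the 20 with the narrowest spread, given by name where the text needs them and otherwise by count and range; others were chosen after their values were seen. Some genes that meet this rule are not reported here. The members and lists were chosen with earlier results of these data known. Calculations used Python 3.11.15, numpy 2.4.6, pandas 2.3.3, scipy 1.17.1 and matplotlib 3.10.9. Alternatives were leaving out each library, other minimums and ratios, rescaling, reads not divided by length, and leaving out mitochondrial genes.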

Additional observations from a re-analysis of the deposited data

How the results depend on the processing

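No paired analysis was possible because no result comes from a test or a comparison of groups. With each library left out in turn, the count of expressed genes ran from 11585 to 11830, the share of the 100 most abundant genes from 46.6% to 49.2%, the contractile and cytoskeletal share from 10.9% to 11.5%, the median percentile of the smooth muscle markers from 99.6189 to 99.6425, the expressed receptors from 123 to 136, and the genes with a 2-fold spread from 432 (without replicate 1) to 1047; no other library moved that count by over 1.5 times. Counted as reads not divided by length, the top 100 genes held 32.1%, the contractile share was 14.4%, the smooth muscle median stood at percentile 99.953 and 2393 genes had the spread. Without mitochondrial genes these were 43.8%, 12.3% and percentile 99.6611. The spread count was 2338 with libraries rescaled to equal sums of FPKM, 1012 with a pseudocount of 1 and no minimum, 323 among genes of at least 10 FPKM, 3620 at a ratio of 1.5 and 670 at a ratio of 3. For these settings more or fewer genes enter by construction. Among the 11718 genes expressed as deposited, the count was 1552 for reads not divided by length and 1784 with rescaled libraries. The spread was found in 19.5% of genes between 1 and 10 FPKM, 5.80% between 10 and 100, 8.01% between 100 and 1000 and 3.37% above. Their median coefficients of variation from counting were 6.38%, 3.25%, 1.49% and 0.658%.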

Other observations

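Stress and immediate early genes, which respond quickly when tissue is handled, were mostly above 10 FPKM. HSPB1, a small heat shock protein abundant in muscle, had 1649, 1633 and 1544 FPKM, and HSP90AA1 423, 259 and 299.6 FPKM, with replicate 1 highest. All 19 heat shock genes were expressed, against 55.1% of all genes, and 2 of them had a 2-fold spread. IER3 had 103, 108 and 106 FPKM, DUSP1 45.9, 44.3 and 43.4 FPKM and JUN 89.6, 52.5 and 88.7 FPKM. Of 16 expressed immediate early genes, 6 had a 2-fold spread, 37.5%, against 13.2% of all expressed genes. They were JUNB, IER2, FOS, EGR1, BTG2 and ATF3, each highest in replicate 3, with FOS at 11.8, 6.44 and 15.7 FPKM. TXNIP, a regulator of glucose uptake and redox state, ranked 75 in the table at 1167, 1326 and 1373 FPKM.

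CYP11A1, the enzyme that starts steroid synthesis from cholesterol, was the single expressed gene among 11 cytochrome P450 genes, at 7.13, 19.6 and 14.6 FPKM, while CYP17A1 averaged 0.0353 ± 0.0612 FPKM. AQP1, a water channel of vessels, had 80.4, 246 and 229 FPKM, and VIM (vimentin, the filament of stromal cells) 414, 991 and 899.5 FPKM, both lowest in replicate 1. Genes of antigen presentation had the same order: B2M had 90.3, 248 and 219 FPKM and CD74 17.0, 76.1 and 69.2 FPKM. Some wide spreads belonged to genes known only by a LOC number whose products have near-identical copies. LOC101123533, annotated as ribosomal protein L37a, had 518, 2.89 and 350 FPKM, and LOC114115573, annotated as cytochrome c oxidase subunit 7C, 0.441, 0.598 and 78.8 FPKM, so the library that was high differed between them. The part of read assignment between copies in these values was not tested.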
